A study of Mus musculus with 6 samples.

Results

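The 10 genes described here are the core of the circadian clock and 1 of its outputs: the activators Arntl (also called Bmal1), Clock and Npas2, the repressors Per1, Per2, Per3 and Cry1, the nuclear receptors Nr1d1 and Nr1d2, and the output factor Dbp. They were taken by name, not by a cutoff on measured values, from the 22815 genes with a usable probe on a mouse array. Earlier results of these data were known when the list was made. Their 19 probes were found through the transcript accession of each probe, and for each gene the probe with the highest mean signal over the 6 arrays was used. Of the 10 genes, 9 were above background and entered the comparison among 16370 genes. Npas2 did not, because its only probe was never well above background.

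The clock is a transcriptional feedback loop that runs in almost every cell, with a period of about a day. ARNTL pairs with CLOCK or NPAS2 and binds E-box elements, which switches on the Per and Cry genes, Nr1d1, Nr1d2 and Dbp. PER and CRY proteins then return to the nucleus and inhibit the pair, while NR1D1 and NR1D2 (REV-ERB alpha and beta) bind ROR elements and repress Arntl, so that Arntl RNA peaks when Per, Nr1d1 and Dbp RNA are low. DBP binds D-box elements, for example in Per genes. In the lung, airway club cells are known for a strong clock, and endotoxin is known to disturb clock gene rhythms.

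The lungs came from male C57BL6 mice aged 10 weeks, which were starved for 16 h and then injected i.p. with LPS, a bacterial endotoxin, at 20 mg/kg. At 3 h and 24 h after LPS, 3 mice received saline and 3 received recombinant human thrombomodulin (rhTM), a soluble form of an endothelial protein that binds thrombin and aids protein C activation. All lungs were taken 30 h after LPS, and each was measured on its own 1-colour Agilent array. The comparison therefore asks whether rhTM altered clock RNA in lungs that had all seen LPS. The control injection is PBS in the general methods of the study and saline elsewhere. No lung without LPS is analysed here, there is a single time, and the hour of the day is not given in the sources used here. An effect of LPS on the clock, or a shift of its phase, cannot be read from these arrays.

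Each value below is a log2 signal with the 75th percentile of its array set at 0, so that 1 unit is a 2-fold difference in brightness. The level of 1 probe is not comparable with that of another probe. The 75th percentiles lay between 675 and 850 signal units, and 36243 to 40647 probes per array were well above background, the most on saline 1. The slope of the spike-in controls (signal against amount, both logged by the scanner software) was 0.826 on saline 1 and 1.07 to 1.09 on the other 5 arrays. Over 16370 genes, rhTM 1 correlated with the other arrays at r = 0.979 to 0.988, and pairs without it at 0.985 to 0.995. Slide 1 held 4 arrays, and slide 2 held saline 1 and rhTM 3. As in lung, surfactant and alveolar markers were well above background on every array. Of 5 liver and heart markers, Apoa1 and Cyp7a1 were never well above background and Alb was on 2 arrays, but the cardiac genes Myh6 and Nppa were on all 6.

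The assignment of 1 pair of arrays is not settled. The authors deposited scanner output and also a table of the same signals. In the table, 99.9% of the values under saline 1 equalled, within 0.1%, the scanner output of rhTM 2, and 99.9% of those under rhTM 2 equalled the scanner output of saline 1. The other 4 columns matched their own arrays at 99.9% or more. Array names here follow the scanner output. The main comparison of each gene is given with these scanner labels and then with the table labels, that is with saline 1 and rhTM 2 exchanged. Under the table labels both slide 2 arrays are rhTM arrays, and all 3 saline arrays lie on slide 1.

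The loop is wired through short promoter elements, and 4 promoters are shown as examples of each kind of element found. Per1 and Arntl had been picked for printing by name, and Per3 and Cry1 were added once the search was done. The sequences are from RefSeq, on mouse build GRCm38.p6, and run 5' to 3' on the strand of the gene from 250 bases before an annotated start. Capitals mark the match: the E-box CACGTG in Per1 and Cry1, in Cry1 also AACGTG, which is the related E'-box read on the opposite strand, the D-box TTATGTAA in Per3 and the ROR element core TAGGTCA in Arntl.
Per1, chr11:69098699-69098998, + strand: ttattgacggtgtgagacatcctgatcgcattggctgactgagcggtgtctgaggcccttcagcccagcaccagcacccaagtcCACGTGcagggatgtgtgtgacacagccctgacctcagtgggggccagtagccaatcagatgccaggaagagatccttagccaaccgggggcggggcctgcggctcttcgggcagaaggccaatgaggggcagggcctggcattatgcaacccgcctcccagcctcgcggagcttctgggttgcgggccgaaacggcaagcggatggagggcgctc
Cry1, chr10:85185005-85185304, - strand: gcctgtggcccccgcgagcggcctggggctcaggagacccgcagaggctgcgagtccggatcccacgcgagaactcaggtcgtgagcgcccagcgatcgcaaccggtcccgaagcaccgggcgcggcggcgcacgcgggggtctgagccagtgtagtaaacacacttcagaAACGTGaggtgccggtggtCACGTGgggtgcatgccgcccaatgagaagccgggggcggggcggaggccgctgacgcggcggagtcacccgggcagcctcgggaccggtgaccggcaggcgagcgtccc
Per3, chr4:151044616-151044915, - strand: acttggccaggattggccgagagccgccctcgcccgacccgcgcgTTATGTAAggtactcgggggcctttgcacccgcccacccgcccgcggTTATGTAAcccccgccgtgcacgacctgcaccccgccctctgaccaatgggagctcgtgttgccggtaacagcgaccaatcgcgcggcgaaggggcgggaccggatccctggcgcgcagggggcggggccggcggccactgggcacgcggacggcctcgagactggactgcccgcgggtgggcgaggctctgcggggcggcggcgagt
Arntl, chr7:113207261-113207560, + strand: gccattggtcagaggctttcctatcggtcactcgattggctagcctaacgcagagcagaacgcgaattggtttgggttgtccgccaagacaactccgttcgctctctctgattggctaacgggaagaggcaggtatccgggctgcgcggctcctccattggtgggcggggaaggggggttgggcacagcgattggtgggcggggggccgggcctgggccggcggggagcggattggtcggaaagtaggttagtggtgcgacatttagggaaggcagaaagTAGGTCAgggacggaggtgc

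The search covered 13 promoter windows of 9 of the 10 genes, on both strands, and a match is only a description of the letters. Clock, Dbp, Npas2 and Nr1d2 (4 of the 9) had no match in any window, and Per2 was not searched. CACGTG lay in 2 of the 13 windows and in 7.15% of all 32851 promoter windows in the table. The E'-box CACGTT lay in Cry1 and in Nr1d1, and in 4.68% of all windows. The D-box, searched as TTATGTAA or TTACGTAA, lay in Per3 alone, and in 1.06% of all windows. In Per3 it began at position -205 and again at -158, counted from the start. TAGGTCA lay in Arntl alone, beginning at position 31 of the later of its annotated starts, and in 2.61% of all windows. The cAMP response element TGACGTCA lay in none of the 13 and in 1.79% of all windows.

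Among the activators, Arntl was a little lower and Clock a little higher in rhTM lungs than in saline lungs, and neither difference passed the test. Arntl was -0.19, -0.08 and -0.20 in saline lungs 1, 2 and 3, and -0.25, -0.32 and -0.42 in rhTM lungs 1, 2 and 3. All 3 rhTM lungs lay below all 3 saline lungs, though the nearest of them were under 0.05 apart. The log2 fold change was -0.17 (95% confidence interval -0.44 to 0.10). In whole lung RNA, fewer cells of a type and less RNA per cell cannot be told apart, which holds for every value here. With the table labels the log2 fold change was -0.09 and the groups overlapped. The 3 Arntl probes, all well above background, disagreed in sign. They gave -0.17 for the brightest, 0.19 for the next, on which rhTM 1 stood highest at -1.57, and -0.23 for the dimmest. Under the table labels they gave -0.09, 0.38 and -0.27, and on the dimmest the rhTM lungs were all lower.

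Clock was 1.51, 1.25 and 1.58 in saline lungs and 1.82, 1.74 and 1.67 in rhTM lungs. The rhTM lungs were all higher, and saline 2 was the lowest of the 6. For Clock the log2 fold change was 0.29 (95% confidence interval -0.02 to 0.61), and under the table labels it was 0.14 with overlapping groups. A less bright Clock probe, also above background, gave 0.05 under the scanner labels and 0.09 under the table labels, with overlap in both. The separation was therefore seen on the brightest Clock probe alone. Npas2, which can stand in for Clock as the partner of Arntl, has no fold change here because no array had a signal well above background.

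The Per genes encode the PERIOD repressors, and their differences had no common direction. Per1, which also responds rapidly to glucocorticoids and other signals, was 4.82, 4.86 and 4.87 in saline lungs and 5.23, 4.91 and 5.09 in rhTM lungs. The saline lungs lay within 0.05 of each other, and all rhTM lungs were above them, rhTM 1 the most and rhTM 2 only just. The log2 fold change was 0.23 (95% confidence interval -0.07 to 0.53), and under the table labels it was 0.17 with overlapping groups.

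Per2 was 2.12, 2.36 and 2.28 in saline lungs and 1.96, 2.59 and 2.26 in rhTM lungs. The rhTM lungs held both the lowest and the highest value, rhTM 1 and rhTM 2. For Per2 the log2 fold change was 0.02 (95% confidence interval -0.41 to 0.45) and its sign depended on the scaling, being -0.01 after quantile normalization. Under the table labels the same gene was lower in rhTM without overlap, with a log2 fold change of -0.30 (95% confidence interval -0.61 to 0.02). A dim Per2 probe gave -0.03 under the scanner labels and 0.08 under the table labels.

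Per3, whose window above holds the D-box letters, was -0.26, 0.18 and -0.07 in saline lungs and -0.65, 0.25 and -0.62 in rhTM lungs. Here rhTM 1 and rhTM 3 were the lowest and rhTM 2 was the highest of all. The log2 fold change was -0.29 (95% confidence interval -0.93 to 0.35). With the table labels, in which rhTM 2 and saline 1 trade places, it was -0.63 (95% confidence interval -0.99 to -0.27; adjusted P = 0.314) and the groups did not overlap. The second Per3 probe gave -0.29 under the scanner labels and -0.26 under the table labels, both with overlapping groups, and on it rhTM 1 stood apart at -3.18 while the other 5 arrays lay between -2.54 and -2.39.

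Cry1 encodes a cryptochrome, the partner of the PER proteins and the strongest repressor of the loop, and it showed the plainest split of the arrays. It was -2.52, -3.00 and -3.02 in saline lungs and -2.25, -2.98 and -2.44 in rhTM lungs. The values fell into separate clusters: saline 1, rhTM 1 and rhTM 3 were high, and the other 3 lay within 0.05 of each other, with a gap of 0.46 between the clusters. Under the scanner labels the groups overlapped, with a log2 fold change of 0.29 (95% confidence interval -0.27 to 0.85). Under the table labels the 3 high arrays are the 3 rhTM arrays, and the log2 fold change was 0.60 (95% confidence interval 0.34 to 0.85; adjusted P = 0.314). The second Cry1 probe did not show the split: it gave 0.20 under the scanner labels and 0.04 under the table labels, with overlap in both.

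The summed signals of several lists were high on the same 3 arrays as Cry1, each led by a few bright genes. The summed linear signal of 8 neutrophil genes, in multiples of the 75th percentile, was 1085, 1208 and 1074 on saline 1, rhTM 1 and rhTM 3 and 919 to 1031 on the others. Of these 8, S100a8 and S100a9, the calprotectin genes, were high on the same 3 arrays and the other 6 genes were not, with Cxcr2 and Mmp8 lowest on saline 1. That of 3 club cell genes was 762, 708 and 794 on those arrays and 548 to 657 on the others, and Scgb1a1, the club cell secretory protein, was the only gene of the list with that split and made up 81.6% to 85.8% of the sum. That of 5 erythroid genes was 666, 650 and 589, and 486 to 525 on the others, and the alpha globin gene Hba-a1 made up 93.2% to 97.8% of it. Without Hba-a1 the erythroid sum was 20.3, 43.9 and 12.7 on saline 1, rhTM 1 and rhTM 3 and 18.5 to 23.9 on the others, with Hbb-b1 and Alas2 lowest on rhTM 3. Slc4a1, the red cell anion exchanger, did show the split, at -2.73, -2.04 and -2.67 on those 3 arrays and -3.29 to -2.97 on the others, and it passed under the table labels with the slide as a block (adjusted P = 0.0393). In that fit 2.65% of all genes tested passed, and the difference comes from slide 1 alone, where rhTM 1 is the only rhTM array. Saline 1 and rhTM 3 are the slide 2 arrays, and they also stood apart in the T cell list at 25.1 and 22.1, against 6.09 to 6.64. That was the signal of Cd4, at log2 values of 4.50 and 4.28 on these arrays and 1.59 to 2.07 on the others. Without Cd4 the list summed to 2.57 and 2.68 on saline 1 and rhTM 3 and to 2.45 to 3.35 on the others, so the other T cell genes did not set the slide 2 arrays apart. The parts of these lists, and of the lower spike-in slope of saline 1, in the Cry1 values were not tested.

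The REV-ERB receptors, repressors of Arntl, differed in how much they varied. Nr1d1 was 0.35, 0.85 and 0.38 in saline lungs and 0.98, 0.49 and -0.16 in rhTM lungs. The rhTM lungs spanned the whole range, with rhTM 1 highest and rhTM 3 lowest. For Nr1d1 the log2 fold change was -0.09 (95% confidence interval -0.81 to 0.63), and under the table labels it was -0.18. It turned to 0.07 without saline 2 and to 0.21 without rhTM 3. Nr1d2 was 1.62, 1.57 and 1.67 in saline lungs and 1.72, 1.82 and 1.57 in rhTM lungs. All 6 values lay within 0.25 of each other. For Nr1d2 the log2 fold change was 0.08 (95% confidence interval -0.20 to 0.36) and turned to -0.05 under the table labels. A second Nr1d2 probe gave 0.16 under the scanner labels and -0.007 under the table labels, with overlap in both.

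Dbp, a transcription factor whose RNA swings widely over the day, was 3.33, 3.75 and 3.54 in saline lungs and 3.37, 3.97 and 3.08 in rhTM lungs. The highest lung, rhTM 2, and the lowest, rhTM 3, were both rhTM lungs. The log2 fold change was -0.07 (95% confidence interval -0.65 to 0.51), and it turned to 0.03 without saline 2 and to 0.12 without rhTM 3. With the table labels it was -0.49 (95% confidence interval -0.85 to -0.14; adjusted P = 0.314) and the rhTM lungs were all lower. The second Dbp probe gave -0.18 under the scanner labels and -0.48 under the table labels, with overlap in both.

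**Figure D1:**
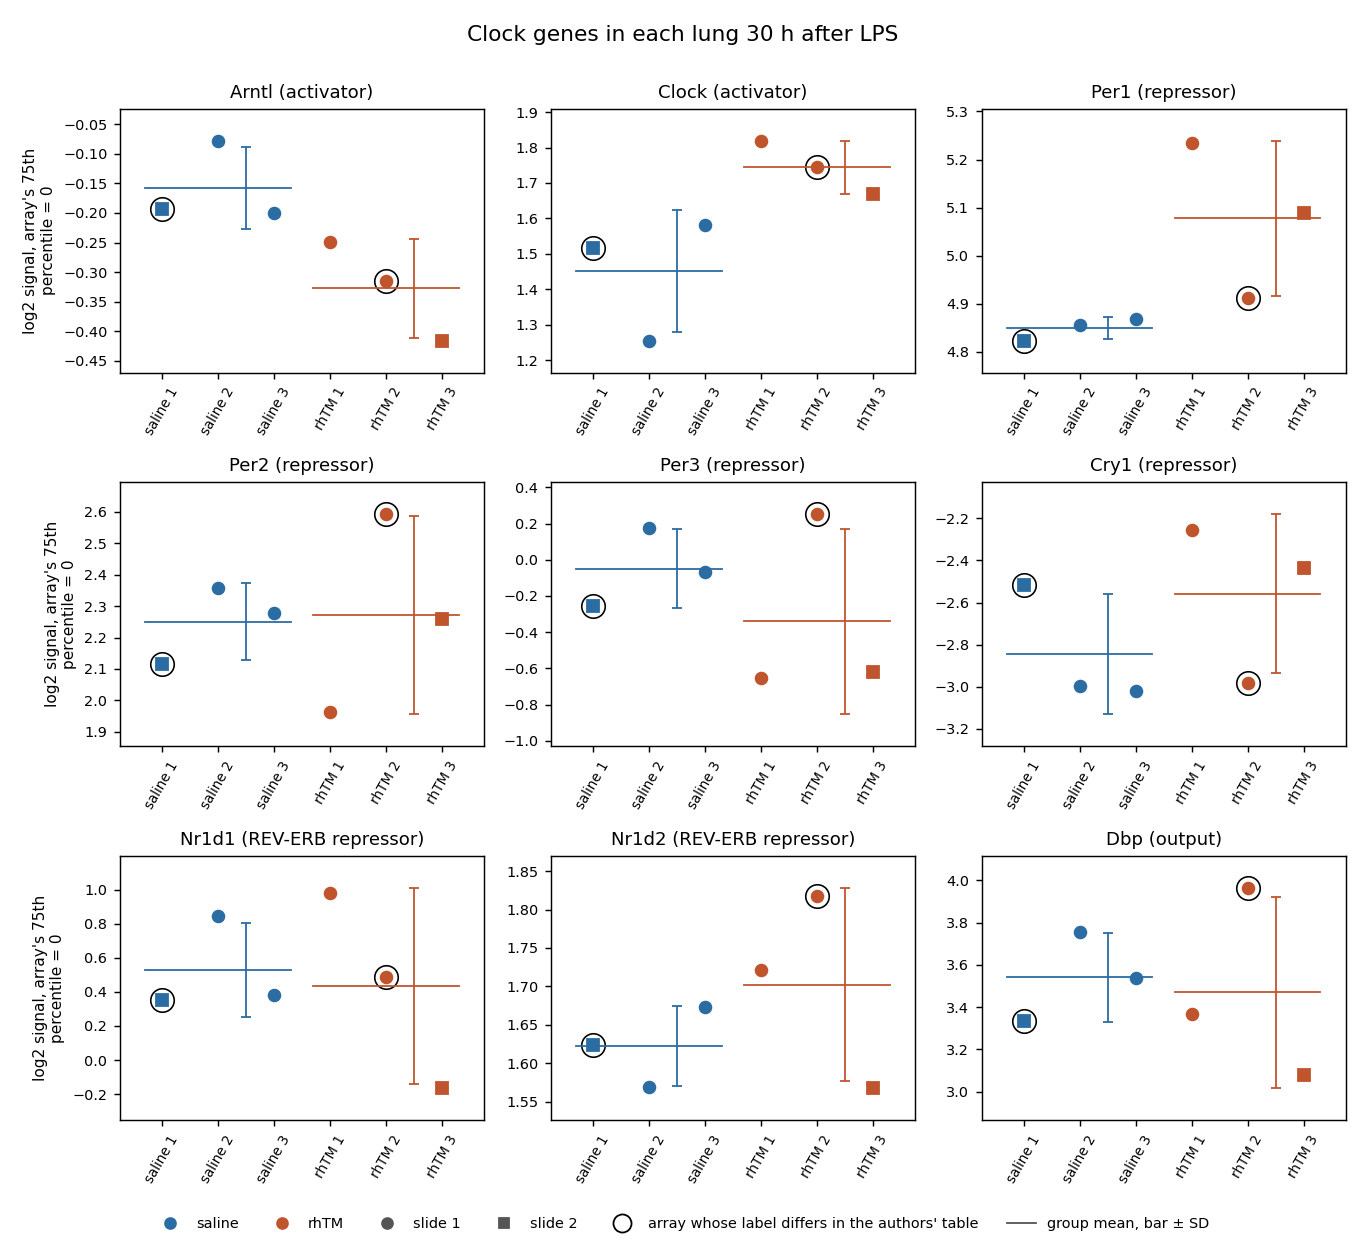
Log2 signal of the 9 tested clock genes (y axis, 75th percentile of each array at 0, own scale in each panel) on the 6 arrays (x axis), with squares for slide 2, horizontal lines for group means and bars for the SD (n = 3). Arntl, Clock and Per1 separate the groups under the scanner labels, while in Cry1 the ringed array saline 1 (-2.52) sits with rhTM 1 and rhTM 3 and the ringed array rhTM 2 (-2.98) sits with saline 2 and saline 3.

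Taken over all genes, no gene passed the test under either labelling. Under the scanner labels, 0 of the 9 clock genes and 0 of 16370 genes (0%) had an adjusted P under 0.05 in limma, and the adjusted P was 0.9999 for each clock gene. Without adjustment, 306 genes and 0 clock genes were under 0.05, and the other test run, the methods' t-test, gave 340 genes before and 0 after adjustment. Under the table labels, 0 of 9 and 0 of 16320 genes (0%) passed, with 2279 genes and 3 clock genes (Per3, Cry1 and Dbp) under 0.05 without adjustment. A single gene cannot go below P = 0.1 in an exact two-sided permutation test of 3 against 3 lungs, which is the value for each gene whose groups did not overlap.

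The clock genes that separated the groups are counted for each labelling in turn. Under the scanner labels, 3 of 9 did not overlap (Clock and Per1 higher, Arntl lower), against 5.52% of all genes tested. With the table labels, 4 of 9 did not overlap (Cry1 higher, Per2, Per3 and Dbp lower), against 21.7% of all genes tested. No gene of the array could be in both sets, since each labelling needs an order of the arrays that the other forbids. The lack of a shared clock gene is therefore set by the exchange. The mean was higher in rhTM for 5 genes and lower for 4 under the scanner labels, with a median log2 fold change of 0.02 beside 0.00 for all genes. Under the table labels it was higher for 3 and lower for 6, with a median of -0.09 beside -0.02 for all genes. The sign of the difference was the same by both for 7 of the 9 genes, and Per2 and Nr1d2 changed sign. Those signs are not independent, since 4 arrays are the same in both.

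With the unsettled pair left out altogether, saline 2 and saline 3 were set against rhTM 1 and rhTM 3. That log2 fold change was -0.69 for Per3, 0.66 for Cry1, -0.42 for Dbp, 0.33 for Clock, 0.30 for Per1 and -0.19 for Arntl. It was -0.21 for Per2, -0.20 for Nr1d1 and 0.02 for Nr1d2. The lowest adjusted P was 0.665, a value shared by 1201 genes, Per3 and Cry1 among them, and 1222 genes were under 0.05 without adjustment.

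The slide bears on the table labels. With the slide as a block under them, 432 of 16320 genes (2.65%) had an adjusted P under 0.05, among them 1 of the 9 clock genes, Cry1 (log2 fold change 0.75, adjusted P = 0.0404). In that fit the difference comes from slide 1 alone, where rhTM 1, the array that stands apart from the rest, is the only rhTM array. When rhTM 1 was left out under the table labels, 561 of 16320 genes passed, again with Cry1 among them (0.52, adjusted P = 0.0371). The remaining rhTM arrays are then all on slide 2 and all saline arrays on slide 1, so slide and treatment cannot be told apart. Both Cry1 calls are on its brightest probe, and the second probe gave 0.04 under the table labels with overlap. Under the scanner labels with the slide as a block, no gene passed. There, the Cry1 difference was 0.39 within slide 1 and 0.08 within slide 2.

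**Figure D2:**
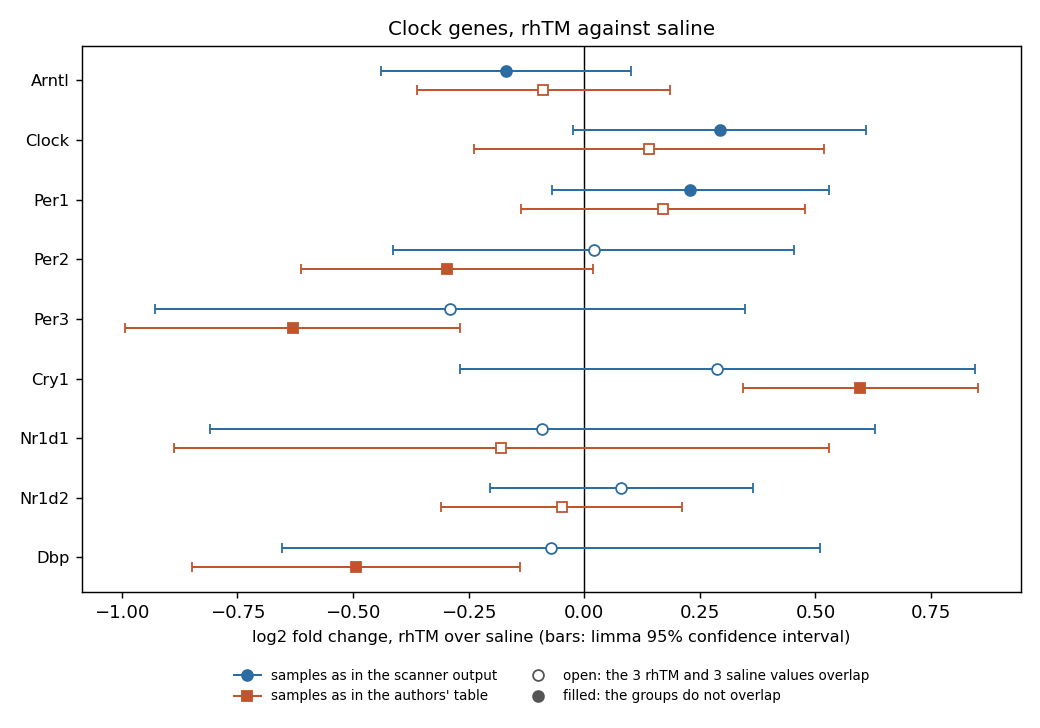
Log2 fold change of rhTM over saline (x axis) for the 9 tested clock genes (y axis), with circles for the scanner labels and squares for the table labels. Bars are limma's 95% confidence intervals and filled symbols mark groups that do not overlap. The filled circles are Arntl, Clock and Per1, and the filled squares are Per2, Per3, Cry1 and Dbp.

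The arrays differed in how often they held a clock gene's extreme value. The array rhTM 1 was the highest or the lowest for 6 of 9 clock genes, and for 56.4% of all genes tested. The arrays rhTM 2 and rhTM 3 each did so for 4 clock genes (27.0% and 33.8% of all genes), saline 2 for 2 (35.1%), and saline 1 and saline 3 for 1 each (30.7% and 17.0%).

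A further 23 genes of the clock and its neighbourhood were listed by name, and 22 had a probe above background, whereas Rorb had none on the array. Under the scanner labels 12 were higher and 10 lower in rhTM, with a median log2 fold change of 0.10 beside 0.00 for all genes. With the table labels 11 were higher and 11 lower, with a median of 0.00 beside -0.02. No gene of the 22 passed by either. Groups did not overlap for 3 of the 22 (Arntl2, Timeless and Rora, all higher) under the scanner labels, and for 8 under the table labels (4 higher, 4 lower), beside the shares of 5.52% and 21.7% given above.

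Cry2, the second cryptochrome, repeated the split of Cry1. It was 4.07, 3.63 and 3.64 in saline lungs and 4.30, 3.59 and 4.07 in rhTM lungs. The same 3 arrays, saline 1, rhTM 1 and rhTM 3, were high, with a gap of 0.43 to the others. The log2 fold change was 0.21 (95% confidence interval -0.32 to 0.73) under the scanner labels and 0.53 (0.27 to 0.78, adjusted P = 0.314) under the table labels. The scanner value ranged from 0.05 (without rhTM 1) to 0.41 (without rhTM 2) as each array was left out. Cry2 passed under the table labels when the slide was a block (0.68, adjusted P = 0.0436). That fit rests on rhTM 1, the only rhTM array of slide 1 there, and 2.65% of all genes tested passed in it.

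Among the genes that act on D-boxes, Hlf and Nfil3 had the largest differences of the 22 under the scanner labels. With the table labels Nfil3 was first, but Cry2, Wee1, Bhlhe40, Usp2 and Csnk1e exceeded Hlf. Nfil3, a repressor there and the counterpart of Dbp, was 2.23, 2.03 and 2.01 in saline lungs and 3.01, 1.88 and 2.63 in rhTM lungs. Saline 1, rhTM 1 and rhTM 3 were again the highest, rhTM 1 by the most. For Nfil3 the log2 fold change was 0.42 under the scanner labels and 0.65 under the table labels, where the groups did not overlap (adjusted P = 0.314). Without rhTM 1 the scanner value was 0.17, and without rhTM 2 it was 0.73. A second Nfil3 probe gave 0.45 and 0.64. Hlf, an activator like Dbp, was -0.86, -1.54 and -1.66 in saline lungs and -3.07, -1.37 and -1.42 in rhTM lungs. The Hlf difference of -0.60 (-0.26 under the table labels) therefore rested on rhTM 1, and without rhTM 1 it was -0.04. Under the table labels and with the slide as a block, which rests on rhTM 1, Hlf passed (-1.55, adjusted P = 0.0436). Tef, the other activator of that family, was also lowest on rhTM 1, while the other 5 arrays lay between 5.39 and 5.74, and its log2 fold change was -0.18 under the scanner labels and -0.17 under the table labels.

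The E-box repressors Bhlhe40 and Bhlhe41 had differences of opposite sign, neither past the test. Bhlhe40 was 0.58, 0.81 and 0.54 in saline lungs and 1.59, 0.73 and 0.85 in rhTM lungs. The array rhTM 1 was far above the other 5, and the log2 fold change was 0.41, or 0.32 under the table labels. Without rhTM 1 these were 0.15 and 0.02. Bhlhe41 gave -0.14 under the scanner labels and -0.26 under the table labels.

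Arntl2, a relative of Arntl that can also pair with CLOCK, was -1.22, -1.21 and -1.03 in saline lungs and -0.83, -0.75 and -0.95 in rhTM lungs. The rhTM lungs were all higher, with a log2 fold change of 0.31 (95% confidence interval 0.02 to 0.60; adjusted P = 0.9999), and under the table labels the groups overlapped with a log2 fold change of -0.002. A dimmer Arntl2 probe was well above background on 1 array. Timeless, which serves DNA replication as well as the clock, was 0.86, 0.98 and 1.16 in saline lungs and 1.80, 1.22 and 1.24 in rhTM lungs. The array rhTM 1 was the highest by the most. Its brightest probe gave a log2 fold change of 0.42 under the scanner labels and 0.18 under the table labels, and a second Timeless probe 0.06 and -0.002. Wee1, a kinase that holds back mitosis and is a known clock target, gave -0.25 under the scanner labels and -0.36 without overlap under the table labels.

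**Figure D3:**
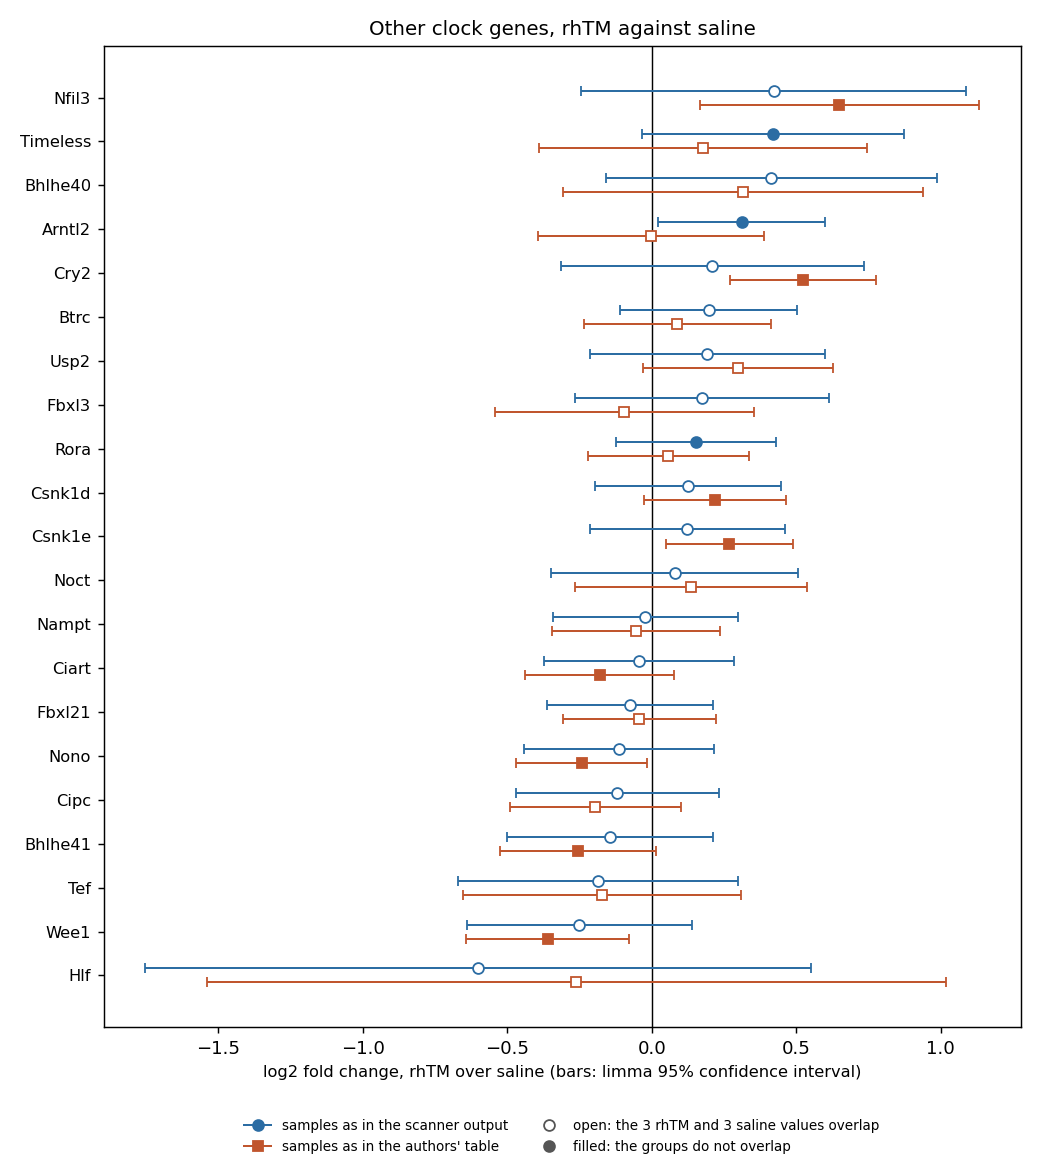
Log2 fold change of rhTM over saline (x axis) for other clock genes (y axis, ordered by the scanner value), drawn as in the plot of the 9 clock genes, with circles for the scanner output, squares for the table and bars for limma's 95% confidence intervals. The circles run from 0.42 for Nfil3 to -0.60 for Hlf.

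**Figure D4:**
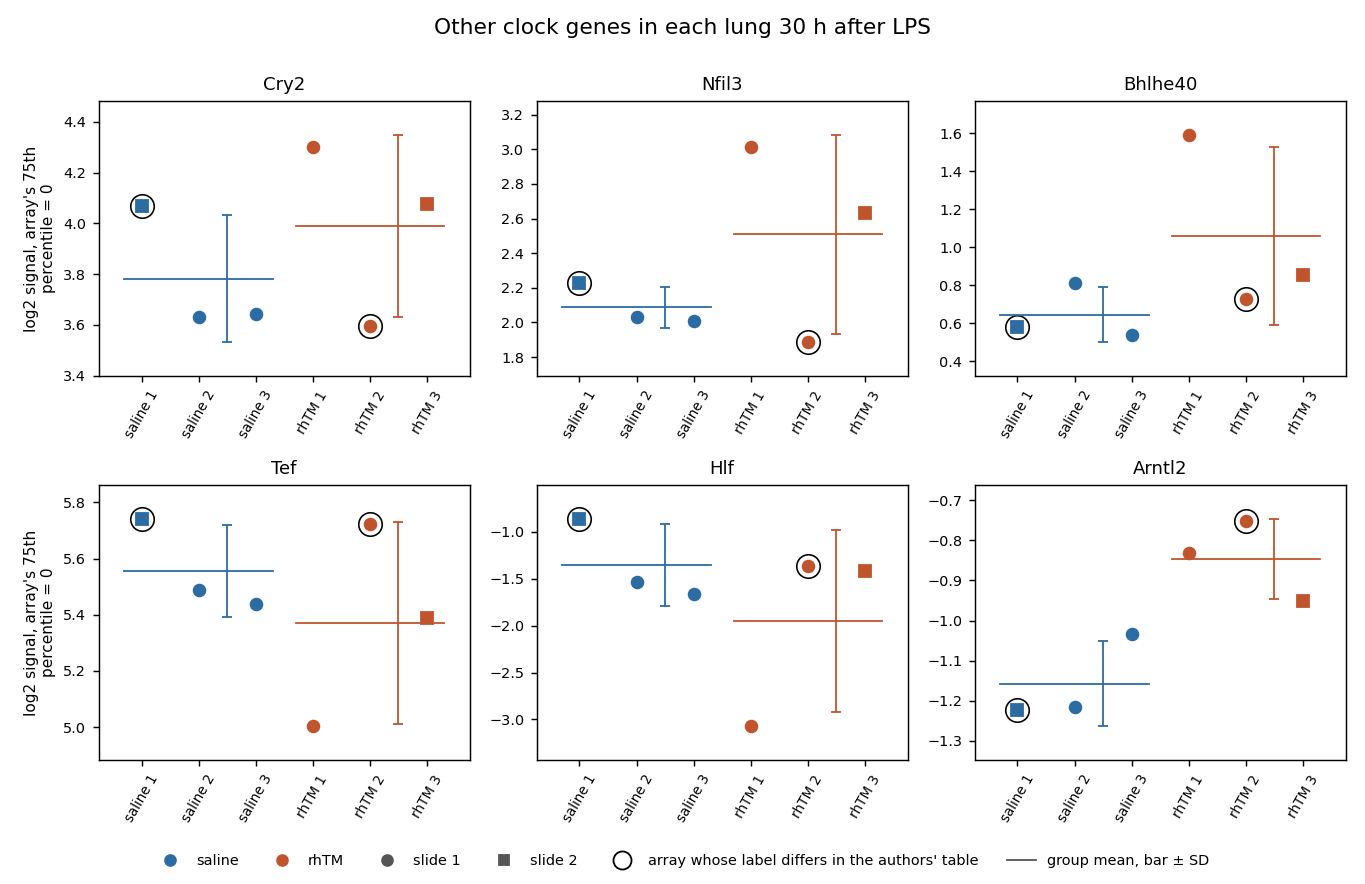
Log2 signal (y axis, 75th percentile of each array at 0) of 6 other clock genes on the 6 arrays (x axis), with squares for slide 2, rings for the arrays whose label differs in the table, horizontal lines for group means and bars for the SD (n = 3). Cry2 and Nfil3 are high on saline 1, rhTM 1 and rhTM 3, and rhTM 1 stands apart in Bhlhe40 (1.59), Tef and Hlf (-3.07).

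Glucocorticoids are a known signal that sets peripheral clocks and induces Per1. Of 14 genes listed as glucocorticoid-responsive, Per1 included, 13 were higher and 1 lower in rhTM under both labellings, and none passed. The median log2 fold change was 0.13 under the scanner labels and 0.24 under the table labels, beside 0.00 and -0.02 for all genes. The groups did not overlap for Per1 alone under the scanner labels, and for 4 others under the table labels (Fkbp5, Mt1, Errfi1 and Lcn2), beside 5.52% and 21.7% of all genes tested. Ddit4, an inhibitor of mTORC1, had the largest difference of the list under the scanner labels, though not under the table labels, where Dusp1 and Mt1 exceeded it. Ddit4 was 4.54, 4.61 and 5.19 in saline lungs and 6.07, 4.79 and 5.10 in rhTM lungs. The highest value was again that of rhTM 1. The log2 fold changes of Ddit4, Mt2, Mt1 and Dusp1 were 0.54, 0.37, 0.29 and 0.27 under the scanner labels and 0.38, 0.31, 0.41 and 0.41 under the table labels. The summed linear signal of the list was 1101 to 1151 in saline lungs and 1502, 1046 and 1426 in rhTM lungs. That sum was, with the table labels, 1046 to 1112 in saline and 1151 to 1502 in rhTM, without overlap. Lcn2, an iron-binding protein of neutrophils and epithelia, made up 34.8% to 43.8% of it, and without Lcn2 the table-label sums overlapped, at 619 to 685 in saline and 646 to 979 in rhTM. Per1 is itself in the list. The sum and Per1 had the same order over the rhTM lungs, and rhTM 1 and rhTM 3 were the highest of the 6 in both, while in the saline lungs, which were within 0.05 in Per1, the sum was highest on saline 1, where Per1 was lowest. The part of this list in the Per1 values was not tested.

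Other cell type lists give the makeup of the lungs beside these values, in summed signal as above and with the scanner labels first. Endothelial genes (7 of 7 tested) summed to 98.5 to 119 in saline lungs and 103 to 147 in rhTM lungs, alveolar type 2 genes (6 of 6) to 965 to 1445 and 878 to 1272, and alveolar type 1 genes (4 of 5) to 253 to 300 and 238 to 277. Ciliated cell genes (5 of 5) summed to 35.4 to 39.5 and 26.5 to 54.7, lowest on rhTM 2, and with the table labels to 26.5 to 38.0 in saline and 39.5 to 54.7 in rhTM, without overlap. Tppp3 made up 63.6% to 70.9% of that sum, and without it the table-label sums overlapped, at 8.03 to 12.8 and 11.6 to 18.7. The median log2 fold change of the ciliated genes was 0.16 under the scanner labels and 0.54 under the table labels. Fibroblast genes (5 of 5) summed to 113 to 140 and 117 to 175, macrophage and monocyte genes (8 of 8) to 622 to 632 and 580 to 640, smooth muscle and pericyte genes (5 of 5) to 23.2 to 32.0 and 23.2 to 32.7. B cell genes (5 of 5) summed to 2.71 to 4.86 and 3.84 to 4.88, lowest on saline 1, and platelet genes (4 of 4) to 10.0 to 14.5 and 13.4 to 27.0, highest on rhTM 1. The table-label sums of the neutrophil, club and erythroid lists also did not overlap, since the 3 arrays named beside Cry1 are then the rhTM arrays. Without their leading genes S100a9, Scgb1a1 and Hba-a1, all 3 overlapped, at 480 to 555 in saline and 551.7 to 681 in rhTM for neutrophils, 77.7 to 121 and 105 to 136 for club cells, and 18.5 to 23.9 and 12.7 to 43.9 for erythroid cells. The table-label sums of the cell type lists other than these and the ciliated one overlapped, as did all of these sums under the scanner labels. A sum follows its brightest genes, and single genes could differ from it. Rgs5, a pericyte gene, was higher in all rhTM lungs under the scanner labels (log2 fold change 1.30, 95% confidence interval 0.76 to 1.85, adjusted P = 0.9999), and under the table labels its groups overlapped at 0.53. Of the 7 endothelial genes, 5 were lower under the table labels, 3 of them without overlap (Pecam1 at -0.63, Tek at -0.67 and Emcn at -0.37), with a median log2 fold change of -0.32 against 0.06 under the scanner labels, while Cldn5 made up 48.5% to 63.9% of the sum. All 5 B cell genes were lower under the table labels, 2 without overlap, with a median of -0.35 against 0.08. Rtkn2 (alveolar type 1) and Trac (T cell) had no probe. No gene in the marker lists passed under either labelling without a slide block. Their part in the clock gene values was not tested.

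Across the 6 lungs, no pair of clock genes had a correlation that passed adjustment. Of 28 pairs of 8 genes, leaving out Cry1 because its values form separate clusters, 2 had an unadjusted exact permutation P under 0.05, and the lowest adjusted P was 0.467. The pairs below are therefore described by their values alone. Per3 and Dbp had the highest correlation, with r = 0.91 (exact permutation P = 0.0167, adjusted P = 0.467) and rho = 0.83 (exact permutation P = 0.0583). It was 0.98 without the 2 arrays farthest from the median of Per3, and 0.91 over the 4 arrays of slide 1. With the values of each group centred on the group mean, r was 0.95 under the scanner labels and 0.63 under the table labels. Both genes are high on rhTM 2 and saline 2 and low on rhTM 1, rhTM 3 and saline 1.

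Per2 and Per3 gave r = 0.80 (exact permutation P = 0.0486, adjusted P = 0.515) and rho = 0.94 (exact permutation P = 0.0167). Without the 2 arrays farthest from the median of Per2, r was 0.47, and without each array in turn it was 0.68 to 0.95. Over slide 1 r was 0.95, and centred on the group means it was 0.91 under the scanner labels and 0.43 under the table labels. In this paragraph the 2 farthest arrays are those farthest from the median of the first-named gene. Arntl and Clock, which encode partners in 1 complex, gave r = -0.74 (exact permutation P = 0.0944) and rho = -0.77, -0.74 without the 2 farthest arrays and -0.92 over slide 1, but -0.40 without saline 2. Centred on the group means, r was -0.27 under the scanner labels and -0.69 under the table labels. Per1 and Per3 gave r = -0.78 (exact permutation P = 0.0903), which turned to 0.82 without the 2 farthest arrays and was -0.91 over slide 1. Arntl with Nr1d1, its repressor, gave r = 0.67 (exact permutation P = 0.133) and -0.30 without the 2 farthest arrays. It was 0.32 over slide 1 and 0.23 without rhTM 3, and centred on the group means it was 0.97 under the scanner labels and 0.65 under the table labels. Slide 2 holds 2 arrays, too few for a correlation.

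**Figure D5:**
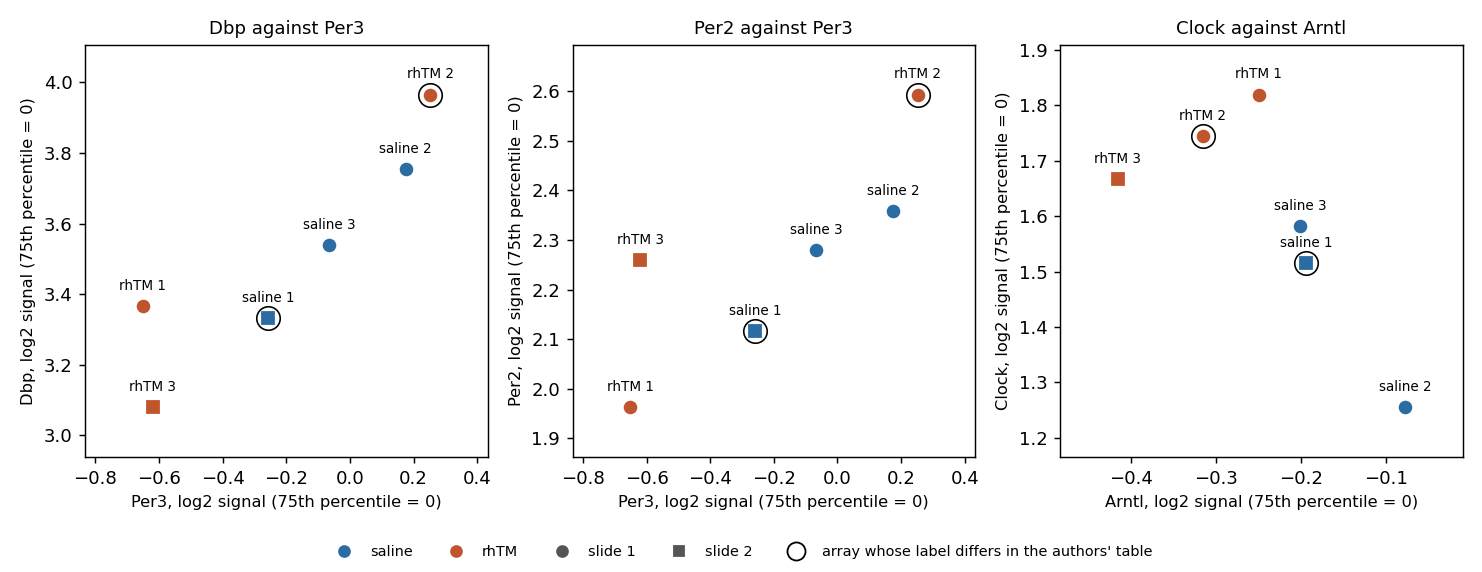
Log2 signals (75th percentile of each array at 0) of Dbp against Per3, Per2 against Per3 and Clock against Arntl, 1 point per array, with squares for slide 2 and rings for the arrays whose label differs in the table. Dbp climbs with Per3 from rhTM 3 (3.08) to rhTM 2 (3.97), except on rhTM 1, where Per3 is lowest and Dbp is 3.37. Clock is lowest on saline 2 (1.25), where Arntl is highest. It is highest on rhTM 1 (1.82), although rhTM 2 and rhTM 3 have less Arntl than rhTM 1.

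Ranked by Pearson's r over the 6 arrays, with no test, the genes most like Arntl among the other 16369 were Rsl24d1, S1pr4, Zfyve9, H2-Q7 and Nelfe (r = 0.985 to 0.973), and the most opposed were Tafa1, Fkbp7, Zfp711, Rhox3f and Pds5a (r = -0.993 to -0.967). None is a clock gene of the lists used here. For Dbp the most alike were Sybu, Rgs21, Matn4, Cldn12 and Tead3 (r = 0.997 to 0.985), and the most opposed were Stmnd1, Spata17, Ccl20, Myb and Nhlrc4 (r = -0.995 to -0.990). With 6 points high values are common: 74 genes were over 0.9 with Arntl and 328 with Dbp. Per3 was number 280 from the top for Dbp, Per2 number 1948 and Nr1d2 number 3551. For Arntl, Clock was number 441 from the bottom and Nr1d1 number 1161 from the top.

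The spread of the clock genes over the lungs, irrespective of treatment, was close to that of other genes. The median SD over 6 arrays was 0.21 for the 9 clock genes and 0.20 for all genes tested. Nr1d2 (SD 0.10) and Arntl (SD 0.12) lay at percentiles 10.1 and 16.4 of all genes, and Per1 (0.16) at 35.3. Clock (0.20) and Per2 (0.21) were near the middle, at percentiles 49.1 and 53.5. Nr1d1 (0.41), Per3 (0.39), Cry1 (0.34) and Dbp (0.32) varied the most, at percentiles 85.4, 83.7, 78.2 and 75.7. The order holds for the brightest probe of each gene: the other Arntl probes had SDs of 0.48 and 0.18, the former above that of Nr1d1. A second Nr1d2 probe had an SD of 0.14, above that of the brightest Arntl probe. These values describe the 6 lungs without regard to how the unsettled pair is labelled.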

How the data were processed

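Lung RNA of 3 saline and 3 rhTM mice was measured on 1-colour Agilent arrays, 1 array per mouse, with groups taken from the sample labels. The authors deposited scanner output of Feature Extraction 10.7.3.1 (the submitters' processing notes name 9.1), whose processed signal is a background-corrected intensity on a linear scale, and a table of the same intensity values, unscaled. For RNA extraction the labels name an RNeasy kit and the methods a simplyRNA kit.

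From the deposited intensity values, control spots and outlier-flagged spots were left out (398 of 56605 probes), spots of a probe were averaged, and the log2 signal was scaled to the 75th percentile of each array. Accessions were matched to RefSeq genes (assembly GRCm38.p6): 32994 probes matched 22911 genes. Probes well above background on all 3 arrays of a group were kept, and the brightest probe stood for its gene, leaving 16370 genes. The array design uses another build, so no probe coordinates are given.

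The rhTM and saline arrays were fitted with limma 3.58.1 in R 4.3.3 (lmFit and eBayes). P values were adjusted by Benjamini and Hochberg's method over all genes tested, with a threshold of 0.05, and the fits were tested on simulated data. Single genes and correlations had exact two-sided permutation tests (scipy 1.17.1), the latter over all 720 orders of the arrays. A gene whose largest gap exceeded 50% of its range was kept out of pooled correlations, a rule set after the values were seen. Figures were drawn with matplotlib 3.10.9. The small number of arrays limits the precision.

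The clock genes, the other lists and the tests were chosen with earlier results of these data known. Named were the 10 clock genes, of the other clock genes the 6 largest differences and Cry2, Tef, Hlf, Nfil3 and Bhlhe41 (1 further gene of that rule is not reported here), the 4 largest of the glucocorticoid list, and the 5 genes most and least like Arntl and Dbp. Other genes named were chosen after their values were seen. Marker lists were of alveolar type 1 and type 2, club and ciliated cells, endothelium, fibroblasts, smooth muscle and pericytes, neutrophils, macrophages and monocytes, T cells, B cells, erythroid cells, platelets and other organs.

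Alternatives were normexp background correction (offset 50, on median spot signals, the ones the scanner output holds), quantile normalization, scaling to the 75th percentile of those probes that were above background everywhere, the authors' table (also with a slide block and without each array), a filter that was stricter or absent, a block for slide or replicate number, averaging of a gene's probes, leaving out each array, and the t-test that the methods name. Same-numbered arrays did not deviate together from their group means (r = -0.30, 0.44 and -0.45), so the numbers were not taken to pair the mice.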

Additional observations from a re-analysis of the deposited data

How the results depend on the processing

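No gene passed by the scanner output under any alternative, among them the fit with the replicate number as a block (replicate block, 0 genes). That replicate block moved no call of a clock gene. The authors' table gave 0 genes, 432 with the slide as a block, and 0 to 561 without each array in turn. The number of clock genes with a higher mean in rhTM was 5. It was 3 in the table, 3 to 4 there without each array in turn, and 4 to 7 in the scanner output without each array in turn. Of the 9 clock genes, Arntl, Clock, Per1, Per3 and Cry1 kept their sign under all 24 alternatives, though not their size. Without each array in turn, Arntl ranged from -0.21 to -0.13, Clock from 0.20 (without saline 2) to 0.36, Per1 from 0.15 (without rhTM 1) to 0.31, Per3 from -0.59 (without rhTM 2) to -0.13 (without rhTM 1) and Cry1 from 0.14 (without rhTM 1) to 0.50 (without rhTM 2). In the table the same ranges were -0.15 to -0.02, 0.0044 to 0.25, 0.08 to 0.28, -0.76 to -0.56 and 0.52 to 0.65. Cry1 and Cry2 passed under the table labels with a slide block (0.75 and 0.68) and without rhTM replicate 1 (0.52 and 0.45), and Hlf in the former (-1.55). The former fit rests on rhTM 1, and in the latter slide and treatment cannot be told apart.

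The log2 fold change of Per2 (0.02) turned to -0.0049 with normexp, -0.0087 with quantile normalization, -0.0033 with the 75th percentile of probes above background, -0.0038 with the mean of its probes, -0.047 without saline replicate 1, -0.14 without rhTM replicate 2 and -0.21 without the unsettled pair, and it ranged up to 0.17 without each array in turn. In the table it was -0.30, -0.45 with the slide as a block, and -0.37 to -0.21 without each array (-0.21, -0.32, -0.36, -0.22, -0.30 and -0.37). Nr1d1 (-0.09) turned to 0.07 without saline replicate 2 and 0.21 without rhTM replicate 3, and in the table to 0.41 with the slide as a block and 0.10 without rhTM replicate 3. Nr1d2 (0.08) turned in the table to -0.049, and there to -0.11, -0.055, -0.091, -0.042 and -0.014 without saline replicates 2 and 3 and rhTM replicates 1, 2 and 3. Dbp (-0.07) turned to 0.03 without saline replicate 2 and 0.12 without rhTM replicate 3. Hlf turned to 0.39 in the table without rhTM replicate 1. The cause was not tested, other than that the table exchanges a pair of arrays. The correlations of Per3 with Dbp and with Per2 and of Arntl with Clock kept their sign under all 13 alternatives, and that of Arntl with Nr1d1 (0.67) under 12 and turned to -0.30 without the 2 arrays farthest from the median of Arntl. The last setting and slide 1 alone were added after seeing the data.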
